A study of Homo sapiens with 9 samples.

Results

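S100 proteins are small calcium sensors, and the genes examined here were S100A2, S100A3, S100A4, S100A6, S100A10, S100A11, S100A13, S100A14, S100A16 and S100P. They were taken by symbol from a table of raw read counts, 10 genes of 25886 in all. The genes were chosen by name, with earlier results of these counts known; the list carried no threshold on a measured value, and no statement of which measured values led to it is at hand. The tests below therefore describe how each gene's difference compares with the spread between libraries, and they are no independent support for a choice of genes. Of the 10 genes, 9 had enough reads to be tested and S100P did not.

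The libraries were made from rRNA-depleted total RNA of cells labelled HT29, which is an established line from a human colorectal adenocarcinoma. There were 3 Control libraries, 3 from cells with stable knockdown of DNMT1, the enzyme that copies DNA methylation onto newly made strands, and 3 from cells with stable knockdown of DNMT3B, which can methylate unmarked DNA. Per the labels, the knockdown cells were made with lentiviruses and selected with puromycin at 1 µg/ml for 3 passages, and the Control libraries carry the same label of puromycin selection. The sources used here do not give the vector in the Control cells, the knockdown sequences or the number of clones or separate cultures. The p-values therefore rest on the spread among 3 libraries per group, and that spread may be technical. The fit drew much of its estimate of that spread from other genes.

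S100 proteins carry a pair of EF-hand loops that bind calcium. Most work as dimers that open a hydrophobic face on binding calcium and then hold a partner, such as an annexin, a myosin tail or p53. Several are also secreted and act on cell surface receptors, among them AGER. Most of the human genes stand side by side in the epidermal differentiation complex on chromosome 1, next to genes for proteins of the skin barrier. In the intestine S100A6, S100A10, S100A11, S100A14 and S100A16 are known as genes of epithelial cells, S100A8 and S100A9 as genes of neutrophils and monocytes, and S100A4 as a gene associated with migration and metastasis.

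The targeted genes followed their labels. DNMT1 was at 448, 468 and 457 counts per 1e6 counts (CPM) in the Control libraries and at 248, 250 and 257 CPM in the DNMT1 knockdown libraries, 55.0% of the Control mean (log2 fold change -0.86 ± 0.03, SE, edgeR adjusted p = 2.83e-20). DNMT3B was at 60.9, 60.4 and 62.6 CPM in Control and at 32.8, 27.9 and 30.8 CPM in DNMT3B knockdown (49.7% of the Control mean, adjusted p = 1.49e-17). The exact two-sided permutation p was 0.1 for each, the smallest that 3 against 3 libraries can give. The other enzyme also differed a little. DNMT1 was at 488 CPM in DNMT3B knockdown (log2 0.09 ± 0.03, edgeR adjusted p = 0.0171), a call lost in 1 of 17 alternative analyses. DNMT3B was at 64.2 CPM in DNMT1 knockdown against 61.3 in Control and was not called (adjusted p = 0.22), although those libraries did not overlap. Libraries held 18.8 to 33.7 M counts (M is 1e6), and 3 counts, the limit that a count of 0 allows, came to 0.0895 to 0.162 CPM. Epithelial markers EPCAM (220 to 286 CPM), KRT8 (978 to 1252), CDH1 (145 to 186) and CDX2 (37.4 to 42.3) were present in every library, whereas the colon differentiation markers KRT20 (0.931 to 2.26 CPM), VIL1 (0.613 to 1.45) and LGALS4 (0.0426 to 0.495) were close to 0 and CDX1 had 1 count in all. These low colon markers go against the colorectal label, while CDX2, from the same list of colorectal epithelial markers, was present. The identity of the cells was not tested. The defining leukocyte genes were near 0 (PTPRC 1 to 5 counts, S100A8 0), while the summed leukocyte list was at 22.1 to 23.4 CPM in Control and DNMT1 knockdown and at 35.1 to 40.3 CPM in DNMT3B knockdown, most of it CD68. Summed stromal markers were at 16.3 to 20.3, 19.7 to 24.1 and 27.5 to 28.6 CPM in Control, DNMT1 and DNMT3B knockdown, nearly all COL1A1, with COL1A2 and DCN at 0. Summed endothelial markers were at 2.89 to 3.39, 2.23 to 2.53 and 4.40 to 5.12 CPM. The part of these markers in the S100 differences was not tested, and in bulk RNA fewer cells expressing a gene and less RNA per cell cannot be told apart.

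Of the 10 genes, 9 lie on chromosome 1 and all of those on the minus strand (GRCh38.p14, RefSeq). S100A10 (chr1:151982915-151993859) and S100A11 (chr1:152032506-152037004) stand at the near end of the complex. The other 7 fall in a stretch of 99.8 kb, in the order S100A6 (chr1:153534599-153535991), S100A4 (chr1:153543621-153545806), S100A3 (chr1:153547329-153549258), S100A2 (chr1:153561108-153565844), S100A16 (chr1:153606883-153613137), S100A14 (chr1:153614255-153616325) and S100A13 (chr1:153618799-153634361). S100P lies apart on chromosome 4 (chr4:6693878-6697170, plus strand).

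DNMT1 and DNMT3B act on the cytosine of CpG pairs, so the sequence before the start sites is shown for 4 genes: S100A4, which differed most from Control; S100A6, the one gene lower in both knockdowns; S100A10, higher in both; and S100A2, which like S100A4 was higher in one knockdown and lower in the other. Each run is the 250 bases upstream of the RefSeq start in GRCh38.p14, minus strand, 5′ to 3′, with every CpG in capitals. No methylation was measured in these libraries. The windows are chr1:153545807-153546056 for S100A4, chr1:153535992-153536241 for S100A6, chr1:151993860-151994109 for S100A10 and chr1:153565845-153566094 for S100A2.
S100A4: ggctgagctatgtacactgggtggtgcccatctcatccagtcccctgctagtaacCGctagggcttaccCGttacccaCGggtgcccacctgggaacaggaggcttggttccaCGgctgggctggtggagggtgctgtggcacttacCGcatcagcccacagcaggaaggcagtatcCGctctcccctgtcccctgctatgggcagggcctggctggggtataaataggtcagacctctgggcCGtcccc
S100A6: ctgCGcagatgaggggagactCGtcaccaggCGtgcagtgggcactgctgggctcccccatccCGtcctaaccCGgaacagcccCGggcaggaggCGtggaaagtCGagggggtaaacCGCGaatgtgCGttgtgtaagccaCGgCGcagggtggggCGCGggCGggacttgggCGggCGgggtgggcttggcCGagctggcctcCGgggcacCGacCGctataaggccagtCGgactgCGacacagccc
S100A10: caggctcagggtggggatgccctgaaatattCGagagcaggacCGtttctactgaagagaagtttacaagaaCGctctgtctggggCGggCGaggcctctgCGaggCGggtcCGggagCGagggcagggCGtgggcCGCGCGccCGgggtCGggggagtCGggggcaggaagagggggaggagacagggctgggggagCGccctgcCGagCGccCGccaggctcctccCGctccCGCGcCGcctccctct
S100A2: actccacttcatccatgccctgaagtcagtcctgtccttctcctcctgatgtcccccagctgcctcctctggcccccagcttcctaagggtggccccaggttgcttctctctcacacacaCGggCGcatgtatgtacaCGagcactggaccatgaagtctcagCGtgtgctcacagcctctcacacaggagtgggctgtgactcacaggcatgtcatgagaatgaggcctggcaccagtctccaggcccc
S100A6 and S100A10 held 24 CpG each, a number reached by 23.7% of the 35116 promoter windows of this length in the RefSeq table, whose median was 11. S100A4 held 7 (58.9% of windows had as many) and S100A2 held 4 (70.7%). Over the 14 windows of the 10 genes the number ran from 1 in a window of S100A16 to 24. The TATA box letters TATAAA, searched on both strands, were in 3 of the 14 windows (S100A4, S100P and one of S100A13) against 10.72% of all windows. The AP-1 letters TGANTCA, also on both strands, were in 2 (S100A3 and the S100A2 window shown) against 6.57%. These are matches of letters and say nothing of what binds there.

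**Figure D1:**
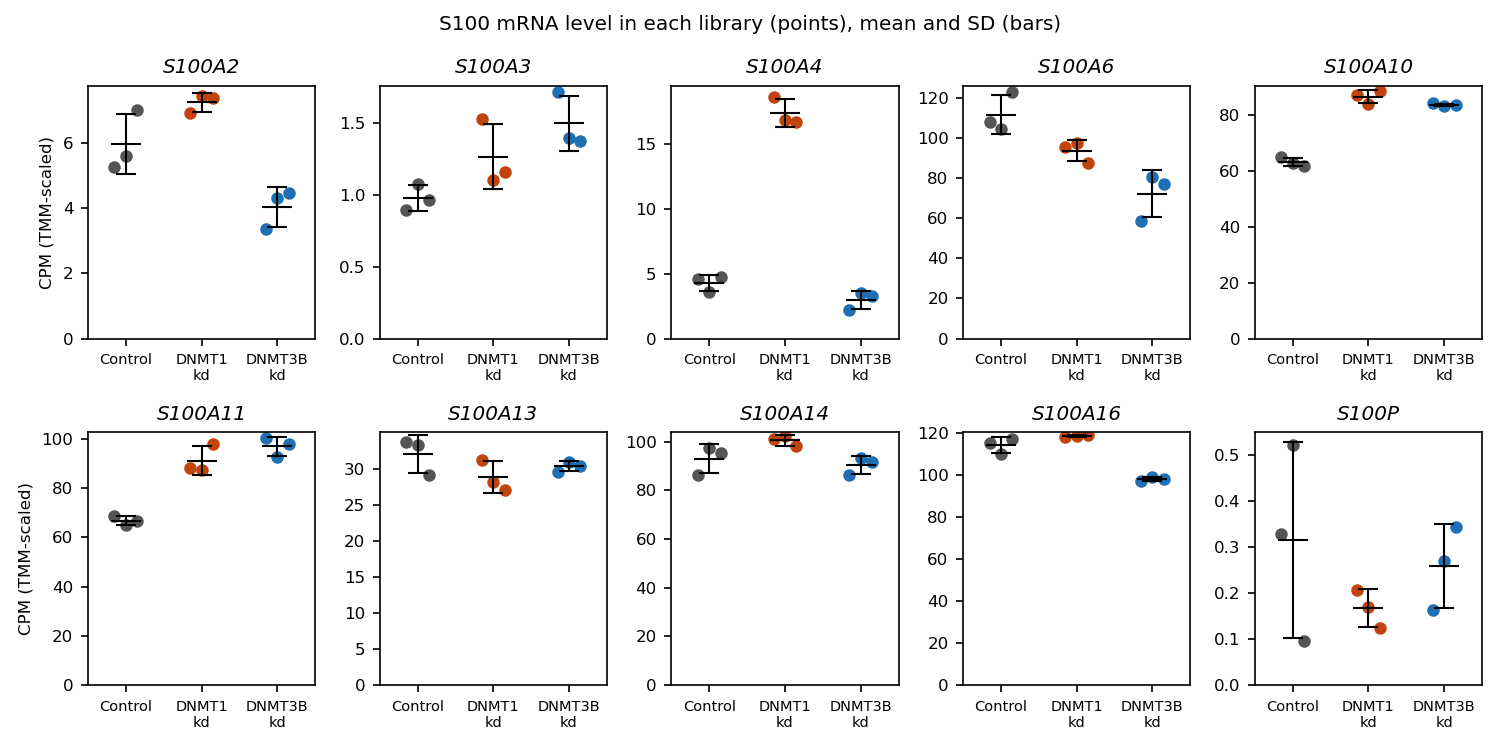
Level of each of the 10 S100 genes in CPM (vertical axis from 0, its scale differing between panels) in the 3 Control, 3 DNMT1 knockdown and 3 DNMT3B knockdown libraries. Points are libraries, and bars are the mean and SD; S100A4 stands at 16.7 to 18.7 CPM in DNMT1 knockdown and at or below 4.75 CPM in all other libraries.

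In DNMT1 knockdown, 5 of the 9 tested S100 genes were higher than in Control (S100A2, S100A4, S100A10, S100A11, S100A14) and 2 were lower (S100A6, S100A13) at an edgeR adjusted p below 0.05. That threshold was passed by 41.8% of all 16660 genes tested, 21% upward and 20.8% downward. Shares of all genes, here and below, were not matched to the listed genes for level. The SE in this comparison was 0.03 for S100A16, at 114 CPM in Control, and 0.21 for S100A3, at 0.979 CPM. A share above that of all genes is therefore no measure of an excess. In DNMT3B knockdown 3 were higher (S100A3, S100A10, S100A11) and 4 lower (S100A2, S100A4, S100A6, S100A16), where 47.7% of all genes passed, 23.1% upward and 24.6% downward. At least 1 of these comparisons, which share the Control libraries, was passed by 9 of the 9 tested genes and by 63.8% of all genes. The median log2 fold change of the 9 was 0.28 in DNMT1 knockdown and -0.08 in DNMT3B knockdown, against -0.0025 and 0.0023 over all genes tested. The libraries of the groups did not overlap for 7 of the 9 in DNMT1 knockdown (49.4% of all genes), for 7 in DNMT3B knockdown (54.1%) and for 5 between the knockdowns (52.2%). The counts differ by tool. DESeq2 called 3 of the 9 in DNMT1 knockdown (S100A4, S100A10, S100A11), a share near the 34.3% of all genes it called, and 6 in DNMT3B knockdown, where it called 40.3% of all genes. With edgeR, leaving out a library gave 4 to 7 in DNMT1 knockdown, with 4 without Control replicate 1 or DNMT1 knockdown replicate 2.

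Among the 9 tested genes S100A4 showed the largest fold change. The gene encodes a protein that binds nonmuscle myosin IIA, encoded by MYH9, and is known for promoting cell motility. Its level was 4.59, 3.58 and 4.75 CPM in Control (154, 96 and 148 reads) and 18.7, 16.9 and 16.7 CPM in DNMT1 knockdown (453, 397 and 402 reads). Every DNMT1 knockdown library was above every Control library. S100A4 rose 4.01-fold (95% interval 3.50 to 4.60, log2 2.01 ± 0.10, adjusted p = 1.89e-17), and 1.69% of all genes rose at least 2-fold at that threshold. In DNMT3B knockdown it stood at 2.21, 3.50 and 3.29 CPM (54, 65 and 86 reads), each library below the lowest Control library. S100A4 fell by 0.55 on the log2 scale there (SE 0.14, adjusted p = 0.00189). Between the knockdowns S100A4 was 5.87-fold higher with DNMT1 knockdown (log2 2.55 ± 0.11, adjusted p = 3.7e-18). The rise held in each of 17 alternative analyses, from log2 1.90 to 2.08, and the fall held in each with log2 values from -0.65 to -0.36, the last without DNMT3B knockdown replicate 1 (adjusted p = 0.041).

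S100A2 moved in the same directions as S100A4 by smaller amounts. It encodes a nuclear S100 protein that binds p53 and is known from basal and squamous epithelium. Its level was 5.28, 5.62 and 7.03 CPM in Control, 6.93, 7.46 and 7.40 CPM in DNMT1 knockdown and 3.36, 4.31 and 4.48 CPM in DNMT3B knockdown. The DNMT3B knockdown libraries all lay below Control, while one DNMT1 knockdown library lay below the highest Control library. S100A2 fell by 0.57 on the log2 scale in DNMT3B knockdown (SE 0.12, adjusted p = 0.000244) and rose by 0.28 in DNMT1 knockdown (SE 0.11, adjusted p = 0.0311). That rise was lost with DESeq2 (adjusted p = 0.0989) and without Control replicate 1 (0.19) or 2 (0.0924) or DNMT1 knockdown replicate 2 (0.0885) or 3 (0.0819). The difference between the knockdowns was log2 0.85 ± 0.12 (adjusted p = 8.23e-07) with no overlap of libraries. A rise with DNMT1 knockdown together with a fall with DNMT3B knockdown was called for 2 of the 9 S100 genes, S100A2 and S100A4, and for 463 of all 16660 genes (2.78%).

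S100A10 and S100A11 rose in both knockdowns, which were set against the same Control libraries. Of all genes, 21% were called higher with DNMT1 knockdown and 23.1% with DNMT3B knockdown. The share of all genes called higher in both was not counted. S100A10 is the member of the family that no longer binds calcium and forms a complex with annexin A2 at the plasma membrane. It was at 64.9, 62.9 and 61.9 CPM in Control, at 87.1, 84.0 and 88.7 CPM in DNMT1 knockdown and at 84.2, 83.3 and 83.6 CPM in DNMT3B knockdown. No knockdown library reached down to Control, and the knockdown groups overlapped each other. The fold change was 1.37 (95% interval 1.30 to 1.44, adjusted p = 1.75e-11) with DNMT1 knockdown and 1.32 (1.25 to 1.40, adjusted p = 2.16e-10) with DNMT3B knockdown. Between the knockdowns the S100A10 fold was 1.03 with an interval of 0.981 to 1.09 (adjusted p = 0.303).

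S100A11, a partner of annexin A1, was at 68.8, 65.2 and 66.5 CPM in Control, at 88.2, 87.5 and 98.1 CPM in DNMT1 knockdown and at 100.3, 92.8 and 98.1 CPM in DNMT3B knockdown. Here too every knockdown library was above Control. The fold change was 1.36 (1.28 to 1.45, adjusted p = 3.95e-10) with DNMT1 knockdown and 1.45 (1.37 to 1.54, adjusted p = 4.83e-12) with DNMT3B knockdown. The fold of DNMT1 over DNMT3B knockdown was 0.939 (0.884 to 0.997, adjusted p = 0.0802), which passed without DNMT1 knockdown replicate 3 (0.00756) or DNMT3B knockdown replicate 2 (0.0311). RefSeq lists 10 pseudogene copies of S100A11 and none is in the table, so some of its reads may be uncertain in origin.

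S100A6, or calcyclin, binds the ubiquitin ligase component CACYBP and is known from proliferating and epithelial cells. It was at 108, 105 and 123 CPM in Control, at 95.5, 97.8 and 87.8 CPM in DNMT1 knockdown and at 58.8, 80.7 and 77.3 CPM in DNMT3B knockdown. The 3 groups did not overlap, with DNMT3B knockdown replicate 1 the lowest library. S100A6 fell by 0.26 on the log2 scale with DNMT1 knockdown (SE 0.06, adjusted p = 0.00174, lost with DESeq2 at 0.112) and by 0.64 with DNMT3B knockdown (SE 0.07, adjusted p = 2.09e-09). Between the knockdowns it was higher with DNMT1 knockdown by log2 0.38 ± 0.07 (adjusted p = 3.04e-05), and by 0.25 (adjusted p = 0.000128) without DNMT3B knockdown replicate 1. S100A6 was the 1 tested S100 gene called lower in both knockdowns, which held for 10.7% of all genes.

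S100A16 and S100A14 lie next to each other and showed small differences. S100A16, a widely expressed S100 protein, was at 115, 110 and 117 CPM in Control, at 118, 118 and 119 CPM in DNMT1 knockdown and at 97.4, 98.9 and 98.4 CPM in DNMT3B knockdown. It fell by 0.22 on the log2 scale with DNMT3B knockdown (SE 0.04, adjusted p = 5e-06), where no library overlapped Control. With DNMT1 knockdown its log2 fold change was 0.05 ± 0.03 (adjusted p = 0.226), although those libraries all lay above Control. S100A14, an epithelial member, was at 86.2, 97.6 and 95.3 CPM in Control, at 101, 103 and 98.1 CPM in DNMT1 knockdown and at 86.2, 93.2 and 91.5 CPM in DNMT3B knockdown. Its rise with DNMT1 knockdown was log2 0.12 ± 0.04 (adjusted p = 0.025), lost with DESeq2 (0.056) and without Control replicate 1 (0.241) or DNMT1 knockdown replicate 1 (0.0518) or 2 (0.0816). With DNMT3B knockdown it was log2 -0.04 ± 0.04 (adjusted p = 0.429).

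S100A13, which takes part in the release of FGF1 from cells, was at 33.7, 33.3 and 29.05 CPM in Control, at 31.2, 28.1 and 27.1 CPM in DNMT1 knockdown and at 29.6, 31.0 and 30.4 CPM in DNMT3B knockdown. The libraries of all groups overlapped. S100A13 fell by 0.15 on the log2 scale with DNMT1 knockdown (SE 0.06, adjusted p = 0.0343), a call lost with DESeq2 (0.0709) and without Control replicate 1 (0.196) or 2 (0.105) or DNMT1 knockdown replicate 2 (0.124) or 3 (0.205). With DNMT3B knockdown its value was log2 -0.08 ± 0.06 (adjusted p = 0.268). S100A1 lies within S100A13 on the opposite strand. Their exons share 28 bases, 3.1% of those of S100A13 and 2.8% of those of S100A1 (GENCODE), and reads there are uncertain, since the use of strand in counting is not given. Exons of S100A13 also overlap those of AL162258.1 on the same strand in GENCODE. The length of that overlap was not measured, and reads there are uncertain too.

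S100A3, a cysteine-rich member known from the hair cuticle, was low. It was at 0.895, 1.08 and 0.963 CPM in Control, at 1.53, 1.11 and 1.16 CPM in DNMT1 knockdown and at 1.72, 1.40 and 1.38 CPM in DNMT3B knockdown, from 26 to 42 reads per library. All knockdown libraries lay above Control. Its log2 fold change was 0.63 ± 0.20 with DNMT3B knockdown (adjusted p = 0.011), lost with DESeq2 (0.06) and without DNMT3B knockdown replicate 1 (0.0837), and 0.38 ± 0.21 with DNMT1 knockdown (adjusted p = 0.147). In RefSeq the noncoding RNA gene LOC101928034 (chr1:153545742-153551769) spans S100A3 and overlaps the 5′ end of S100A4. It had 1 to 6 reads per library. Shared exon bases were not measured, so reads there are uncertain.

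S100P, a partner of ezrin often studied in pancreatic and colorectal tumours, had 11, 14 and 3 reads in Control, 5, 4 and 3 in DNMT1 knockdown and 4, 5 and 9 in DNMT3B knockdown. Its libraries overlapped in every comparison, and Control held both the lowest and the highest counts. Summed over libraries and adjusted for depth, S100P stood at 0.547 of Control in DNMT1 knockdown (12 against 28 reads, exact 95% interval 0.253 to 1.11) and at 0.851 in DNMT3B knockdown (18 against 28 reads, 0.444 to 1.59). Those intervals cover counting error only. No difference was detected at this depth, and the intervals leave room for one.

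**Figure D2:**
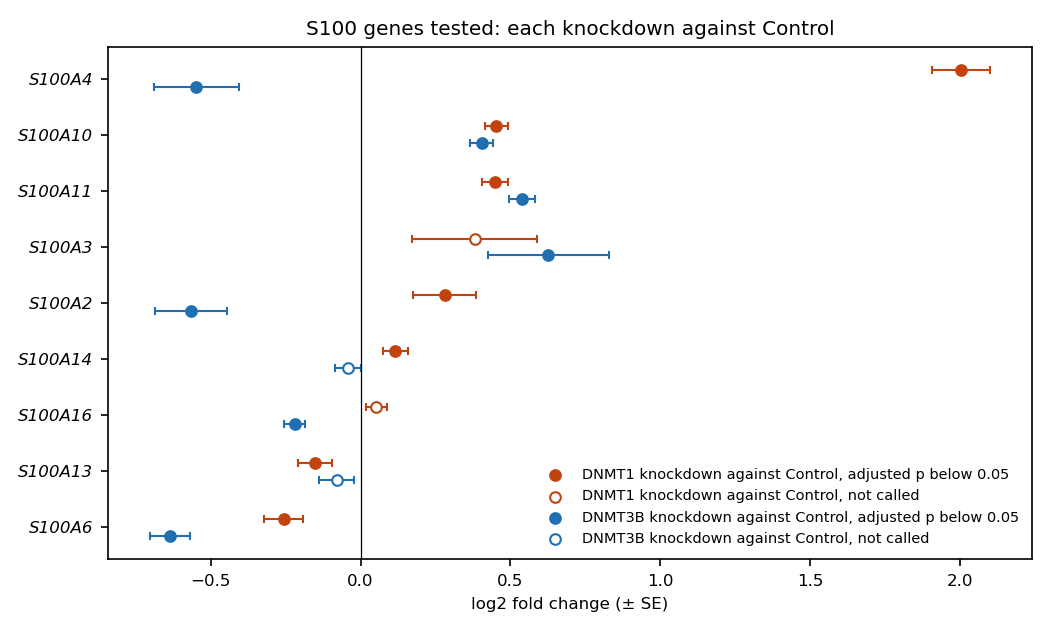
Log2 fold change (± SE, horizontal axis) of the 9 tested S100 genes in each knockdown against Control, filled where the edgeR adjusted p was below 0.05. S100A4 stands at 2.01 in DNMT1 knockdown and -0.55 in DNMT3B knockdown, while S100A10 and S100A11 lie at 0.40 to 0.54 in both.

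Set directly against each other, the knockdowns differed at 5 of the 9 genes, all higher with DNMT1 knockdown: S100A2, S100A4, S100A6, S100A14 (log2 0.16 ± 0.04, adjusted p = 0.00295) and S100A16 (log2 0.27 ± 0.04, adjusted p = 1.74e-07). Over all genes 45.2% differed, 24.3% higher and 20.9% lower with DNMT1 knockdown. S100A3 (log2 -0.25, adjusted p = 0.342) and S100A13 (log2 -0.07, adjusted p = 0.352) did not pass, nor did S100A10 and S100A11. The fold of DNMT1 over DNMT3B knockdown had an interval of 0.634 to 1.12 for S100A3 and 0.873 to 1.04 for S100A13, so the S100A3 interval leaves room for a larger difference than that of S100A13.

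Compared with each other per kb of annotated exon, the 10 genes covered a wide range of levels in Control. The length joins all annotated exons of a gene and may exceed that of the transcripts present, so the order is approximate. The doubt about the origin of some S100A11 reads applies to its place too. S100A6 was highest at 132 ± 11.4 CPM per kb (SD, n = 3), then S100A11 at 113 ± 3.01, S100A14 at 72.8 ± 4.70, S100A16 at 70.9 ± 2.32, S100A10 at 50.3 ± 1.22 and S100A13 at 34.9 ± 2.81. The libraries of S100A14 (67.5 to 76.4 CPM per kb) and S100A16 (68.3 to 72.8) overlapped, so their order is not resolved. The low genes were S100A4 at 5.21 ± 0.771, S100A2 at 3.81 ± 0.592, S100A3 at 1.03 ± 0.098 and S100P at 0.246 ± 0.166 CPM per kb, with the libraries of S100A4 (4.32 to 5.74) and S100A2 (3.37 to 4.49) overlapping. In both knockdowns S100A11 was the highest, at 154 CPM per kb with DNMT1 and 163 with DNMT3B knockdown, and S100A6 the next by its mean, at 111 and 85.3. With DNMT3B knockdown the libraries of S100A6 (69.5 to 95.2 CPM per kb) overlapped those of S100A14 (67.5 to 73.0), so that place is not resolved. By its mean S100A4 kept the seventh place in every group, at 21.1 CPM per kb with DNMT1 knockdown and 3.63 with DNMT3B knockdown. Its rise of 4.01-fold left it below S100A13, at 31.4 CPM per kb in the same libraries.

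**Figure D3:**
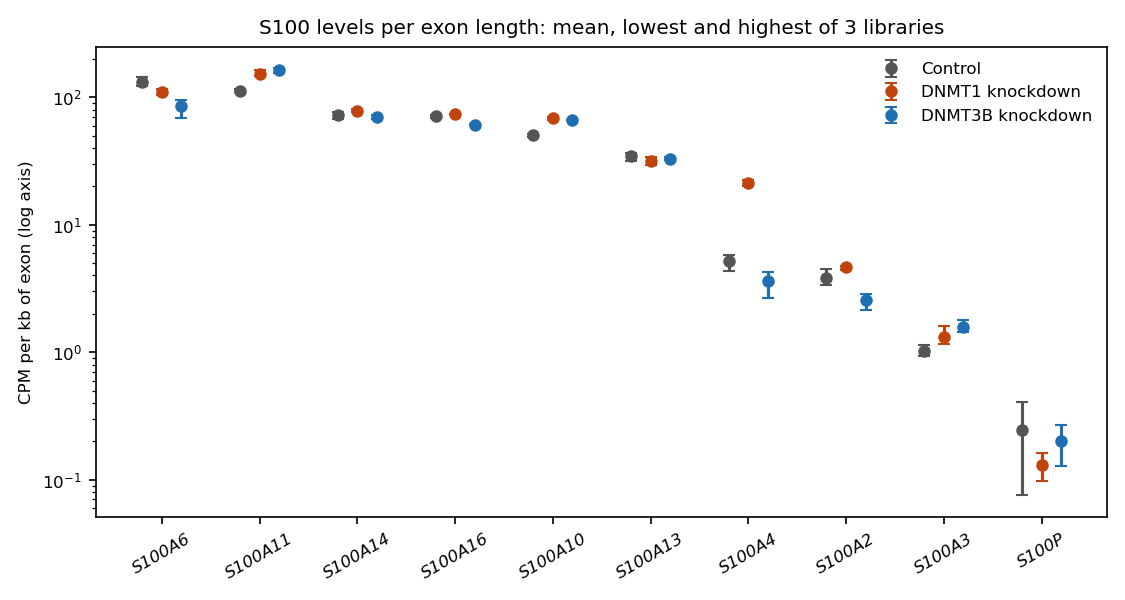
Mean level of the 10 S100 genes in CPM per kb of exon (log axis) in each group, with bars from the lowest to the highest of 3 libraries. S100A6 leads in Control at 132 CPM per kb and S100A11 in both knockdowns at 154 and 163, and S100P is lowest in every group.

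The summed level of the 10 genes was 488, 485 and 506 CPM in Control, 549, 544 and 544 CPM in DNMT1 knockdown and 464, 489 and 489 CPM in DNMT3B knockdown. DNMT1 knockdown lay above the other groups in every library, at 111% of the Control mean, and DNMT3B knockdown overlapped Control at 97.5% of its mean. The makeup of the S100 reads differed between groups. S100A6 made up 22.7% ± 1.43 of them in Control, 17.2% ± 0.945 with DNMT1 knockdown and 15% ± 2.03 with DNMT3B knockdown (SD, n = 3). S100A11 went from 13.6% to 16.7% and 20.2%, S100A10 from 12.8% to 15.9% and 17.4%, and S100A4 from 0.873% to 3.19% and 0.622%. Shares of one total depend on each other, so these are descriptions.

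Neighbouring genes differed in direction. The complex between S100A10 and S100A13 spans 1651.4 kb and holds 67 genes of the table, of which 54 had too few reads to be tested. The 13 tested were 11 S100 genes and the barrier protein genes HRNR and TCHH. Within 99.8 kb, S100A6 fell in both knockdowns, S100A4 rose in one and fell in the other, and S100A3 between S100A4 and S100A2 was called higher in DNMT3B knockdown while both of its neighbours were lower. S100A5, the gene between S100A6 and S100A4, is not among the 10. It had 9 to 27 reads per library, at 0.358 ± 0.112 CPM in Control, 1.02 ± 0.123 in DNMT1 knockdown (log2 1.53 ± 0.28, adjusted p = 4.34e-05) and 0.649 ± 0.078 in DNMT3B knockdown (log2 0.89 ± 0.31, adjusted p = 0.0199). The S100A5 call with DNMT3B knockdown was lost with DESeq2 (0.077) and without Control replicate 1 (0.0992), Control replicate 3 (0.0594) or DNMT3B knockdown replicate 3 (0.0913). S100A5 and S100A4 overlap by 65 bases on the same strand in RefSeq and by 0 exon bases in GENCODE, and which annotation was used for counting is not given.

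**Figure D4:**
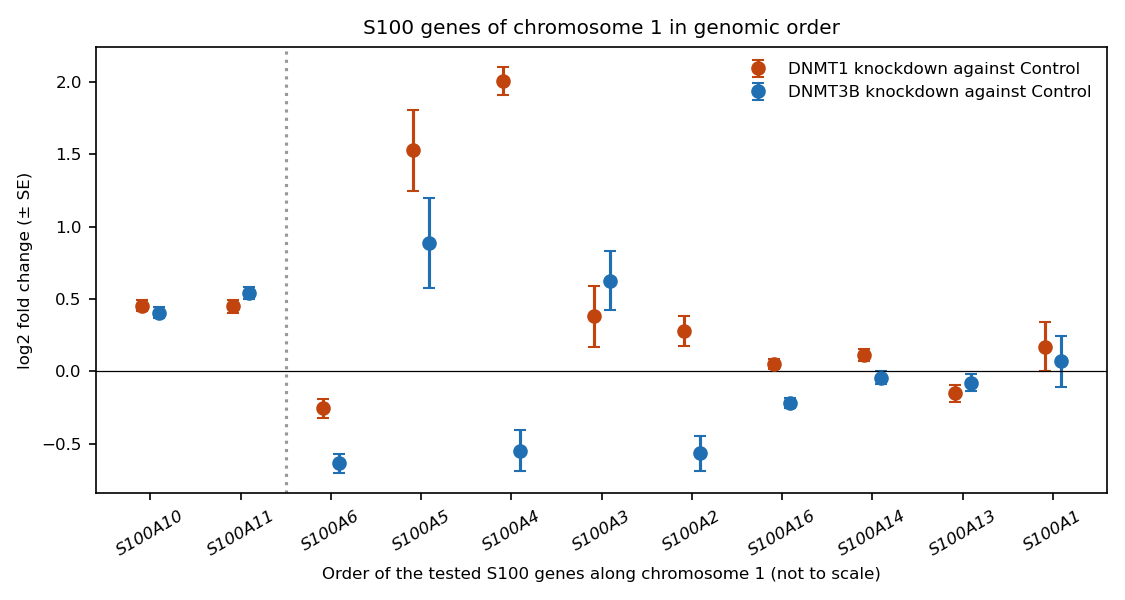
Log2 fold change (± SE, vertical axis) of the 11 tested S100 genes of chromosome 1 in each knockdown against Control, in genomic order and not to scale; the dotted line parts S100A10 and S100A11 from the other 9. S100A4 and S100A5 stand at 2.01 and 1.53 in DNMT1 knockdown, between S100A6 at -0.26 and S100A3 at 0.38.

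The rest of the family was at low levels or at 0. The table held 20 S100 genes, 10 of them outside the list, and of those 3 were tested. Besides S100A5 these were S100A1 (1.59, 1.78 and 1.66 CPM in Control, DNMT1 and DNMT3B knockdown, adjusted p = 0.455 and 0.774) and S100G (2 to 12 reads, adjusted p = 0.625 and 0.971). S100A8 and S100A7A had no read in any library, which allows up to 0.0895 to 0.162 CPM, and S100A9, S100A12 and S100B had at most 1. The list thus left out S100A1, S100A5 and S100G although S100P, with 3 to 14 reads, was in it.

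Genes for partners and receptors of S100 proteins were counted in a list of 39, of which 35 were tested. With DNMT1 knockdown 9 rose and 9 fell (51.4% called, against 41.8% of all genes), and with DNMT3B knockdown 12 rose and 7 fell (54.3% against 47.7%). Their median log2 fold change was 0.04 in each comparison, against -0.0025 and 0.0023 over all genes.

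The annexin partners of the rising S100 genes differed from each other. ANXA2 and ANXA1 are named for their small adjusted p in these same data, so they are no independent support. Of the other annexins listed, ANXA5 and ANXA6 were called in neither knockdown, and ANXA11 is given below. ANXA2, the partner of S100A10, went from 277 ± 1.88 CPM in Control to 421 ± 0.659 with DNMT1 knockdown (log2 0.60 ± 0.03, adjusted p = 2.24e-16) and 345 ± 8.63 with DNMT3B knockdown (log2 0.31 ± 0.03, adjusted p = 1.22e-09; SD, n = 3). It rose in both knockdowns, as S100A10 did, and unlike S100A10 its level with DNMT1 knockdown exceeded that with DNMT3B knockdown (log2 0.29 ± 0.03, adjusted p = 5.59e-09). ANXA1, the partner of S100A11, was at 359 ± 11.9 CPM in Control, fell to 319 ± 10.2 with DNMT1 knockdown (log2 -0.17, adjusted p = 0.000701) and rose to 481 ± 31.9 with DNMT3B knockdown (log2 0.42, adjusted p = 1.44e-10). S100A11 thus rose in both knockdowns and ANXA1 in one. AHNAK, a scaffold bound by the S100A10 and annexin A2 complex and named here with its values known, rose from 1060 to 1332 CPM with DNMT1 knockdown (log2 0.33, adjusted p = 4.92e-09) and was at 1097 CPM with DNMT3B knockdown (log2 0.05, adjusted p = 0.258).

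Among other partners, MDM2, the ubiquitin ligase of p53 that S100 proteins can bind, was at 333 CPM in Control, 247 with DNMT1 knockdown (log2 -0.43, adjusted p = 3.32e-12) and 445 with DNMT3B knockdown (log2 0.42, adjusted p = 3.39e-12). Its directions were opposite to those of S100A2 and S100A4. CD36, a scavenger receptor reported for S100A8 and S100A9, fell from 3.58 CPM to 0.683 (log2 -2.39, adjusted p = 1.47e-11) and 1.20 CPM (log2 -1.54). The following were chosen with their values known. MYH9, the S100A4 target, was at 1331 CPM in Control, 1321 with DNMT1 knockdown (log2 -0.01, adjusted p = 0.829) and 1463 with DNMT3B knockdown (log2 0.14, adjusted p = 0.00129). Partners of S100A6 differed from each other. CACYBP fell in DNMT1 and DNMT3B knockdown, by 0.10 (adjusted p = 0.0236) and 0.20 (adjusted p = 2.84e-05) on the log2 scale. ANXA11, an annexin bound by S100A6, rose in both (log2 0.31, adjusted p = 7.34e-09, and 0.25, adjusted p = 2.87e-07), and SUGT1 was not called (adjusted p = 0.286 and 0.243). EZR, the S100P partner, was lower with DNMT1 knockdown (log2 -0.27, adjusted p = 1.72e-07) and higher with DNMT3B knockdown (log2 0.17, adjusted p = 8.11e-05). Of the receptors, AGER was at 12.3, 12.4 and 11.7 CPM in the 3 groups and was not called, and TLR4 had 1 read in all libraries together. BSG, of the same list, rose from 517 to 581 CPM with DNMT1 knockdown (log2 0.17, adjusted p = 0.000146). It was not called with DNMT3B knockdown (527 CPM, adjusted p = 0.552).

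**Figure D5:**
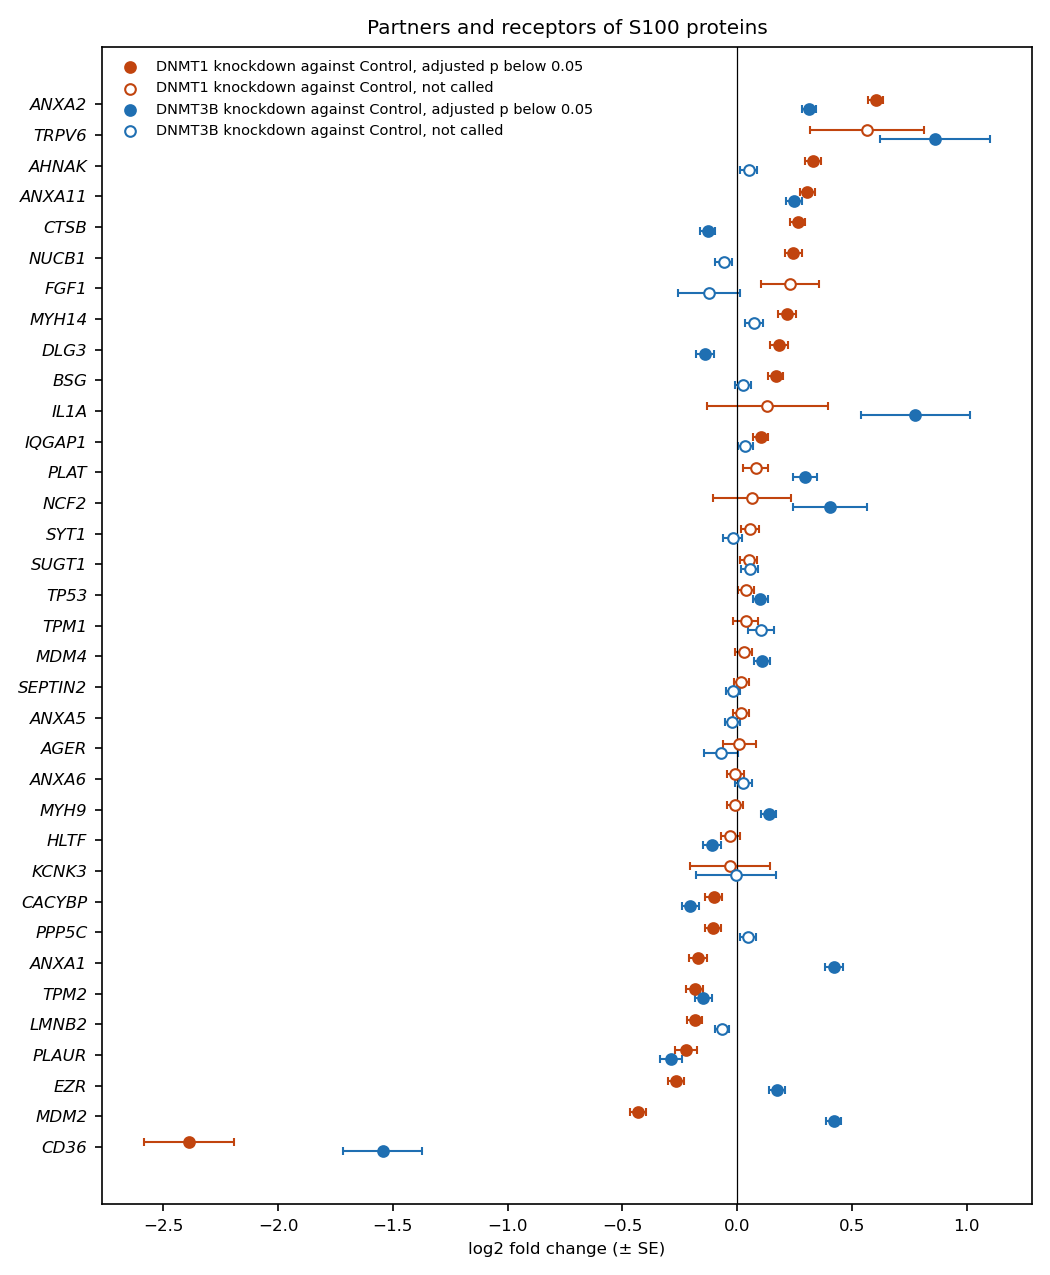
Log2 fold change (± SE, horizontal axis) of the 35 tested partner and receptor genes in each knockdown against Control, filled where the edgeR adjusted p was below 0.05. ANXA2 is higher in both knockdowns at 0.60 and 0.31, ANXA1 and MDM2 lie on opposite sides of 0, and CD36 lies far to the left at -2.39 and -1.54.

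Genes whose pattern was most like that of the 3 S100 genes with the largest differences were found by the mean absolute difference of log2(CPM + 0.5), centred on Control, over the 9 libraries. Nearest to S100A4 was AQP3, a water and glycerol channel (difference 0.24), at 4.69 CPM in Control, 15.6 with DNMT1 knockdown and 3.15 with DNMT3B knockdown. The next was TIAM1, an activator of RAC1 (0.39), at 84.1, 195 and 75.6 CPM. By the fit TIAM1 changed less than S100A4, with log2 values of 1.22 and -0.15 in DNMT1 and DNMT3B knockdown. AQP3 was at 1.74 and -0.57, and S100A4 at 2.01 and -0.55. Nearest to S100A6 were the histone genes H4C5 (0.06; 134, 108 and 90.8 CPM) and H4C3 (0.07; 135, 108 and 92.6 CPM), whose near-identical copies make their counts uncertain. Nearest to S100A3 were ZNF557 (0.06; 25.2, 29.4 and 32.3 CPM) and LOC105371414 (0.07; 14.1, 15.3 and 19.0 CPM). On the fitted scale these changed less than S100A3, with log2 values of 0.23 and 0.36 for ZNF557 and 0.12 and 0.44 for LOC105371414 in DNMT1 and DNMT3B knockdown, against 0.38 and 0.63. S100A3 lies near 1 CPM, where the added 0.5 shrinks its differences.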

How the data were processed

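The authors deposited raw read counts per gene symbol, not scaled, for 9 libraries. The submitters' processing notes name STAR, featureCounts, DESeq2 and GRCh38 (hg38). The sources used here do not give versions, settings, annotation or use of strand. Groups came from the sample labels, and 0 columns lacked a sample. Replicate counts differed by more than sampling noise, so each library counted once.

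In R 4.3.3, genes passing filterByExpr (16660 of 25886) were scaled by TMM and fitted with edgeR 4.0.16 quasi-likelihood over all 9 libraries (6 residual degrees of freedom). Benjamini-Hochberg adjustment ran over all tested genes, with a threshold of 0.05. An adjusted p with no other tool beside it comes from edgeR. Library sizes for CPM were TMM-scaled. A log2 fold change carries its SE after ±. The procedure was tested on simulated data. The changes put into them were larger than most S100 changes called here, and spread particular to a gene was left out. The smaller changes were therefore not covered by that test.

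The S100 genes, the lists and the tests were chosen with earlier results of these data known. Besides the 10 genes, DNMT1 and DNMT3B, the rule named the 3 called genes of smallest adjusted p per list and knockdown, and the 2 genes nearest in pattern to each of 3 S100 genes. Coordinates and promoters are from RefSeq GRCh38.p14 (25230 of 25886 symbols found), exon lengths from GENCODE. Protein sequences were not used here. Alternatives were DESeq2 1.42.0, limma-voom (limma 3.58.1), other scalings and filters, fits of the 2 groups compared, the replicate number as a block, and each library left out.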

Additional observations from a re-analysis of the deposited data

How the results depend on the processing

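Across 17 alternatives, 9 of which left out a library, 439 of 459 fold changes of the tested S100 genes kept their direction and their side of the threshold, 17 no longer passed it, 3 newly passed it and 0 changed sign. With DESeq2 the S100 genes called in DNMT1 knockdown went from 7 to 3, 3 higher and 0 lower, where DESeq2 called 34.3% of all genes against 41.8% with edgeR, and the cause was not tested. Leaving out a library gave 4 to 7 called there, 3 to 5 higher and 1 to 2 lower. For DNMT1 against DNMT3B knockdown it gave 0 to 1 S100 genes lower. S100A13 passed as lower with DNMT3B knockdown without Control replicate 3 (adjusted p = 0.0494). Over all genes the calls ran from 5718 to 7132, from 6706 to 8187 and from 6323 to 7640 in DNMT1 knockdown, DNMT3B knockdown and between them. No scaling moved the median of all genes by as much as 0.1. With the replicate number as a block, 7, 7 and 5 S100 genes were called in these comparisons, and no call of the 9 tested genes changed. Same-numbered libraries showed no clear shared deviation (1 of 9 pairs had a correlation over 0.1, range -0.1672 to 0.1734). Whether libraries of the same number were prepared together cannot be told from so few libraries. S100A3, S100A5 and S100P, with few reads per library, are limited by depth, and S100A5 left the fit under a minimum of 1 CPM.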

Other observations

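Other EF-hand calcium sensors and buffers, a list of 43 genes of which 37 were tested, were counted beside the S100 genes. With DNMT1 knockdown 9 rose and 9 fell (48.6% called, against 41.8% of all genes), and with DNMT3B knockdown 7 rose and 14 fell (56.8% against 47.7%). Their median log2 fold changes were -0.03 and -0.04. CALB2, or calretinin, rose from 5.37 CPM in Control to 11.4 with DNMT1 knockdown (log2 1.09, edgeR adjusted p = 3.2e-11) and 9.90 with DNMT3B knockdown (log2 0.89, adjusted p = 3.81e-09). GCA, or grancalcin, rose from 4.57 to 7.46 CPM with DNMT1 knockdown (log2 0.70, adjusted p = 3.99e-06) and had a log2 value of -0.13 with DNMT3B knockdown (adjusted p = 0.39). NUCB1, a Golgi calcium-binding protein, rose by log2 0.24 with DNMT1 knockdown (adjusted p = 1.86e-06). CHP1, a calcineurin-like protein that binds sodium-proton exchangers, fell from 176 to 129 CPM with DNMT3B knockdown (log2 -0.45, adjusted p = 2.37e-12) and stood at 179 CPM with DNMT1 knockdown, which was not called (adjusted p = 0.598). HPCAL1, a neuronal calcium sensor, fell from 96.8 to 74.3 CPM with DNMT3B knockdown (log2 -0.38, adjusted p = 3.96e-10).

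The skin barrier genes that carry an S100 domain fused to long repeats were a list of 7, of which 2 were tested, each with group means under 1 CPM. HRNR, or hornerin, was at 0.353 CPM in Control, 0.153 with DNMT1 knockdown (log2 -1.16, adjusted p = 0.0326) and 0.868 with DNMT3B knockdown (log2 1.30, adjusted p = 0.000252). Between the knockdowns HRNR differed by log2 -2.46 (adjusted p = 1.15e-06). HRNR had 3 to 22 reads per library, and its lowest library stood at 0.128 CPM, the level of 3 counts. The sizes of these HRNR differences are therefore uncertain. TCHH, or trichohyalin, had 11 to 30 reads per library. It was at 0.603, 0.531 and 0.994 CPM and rose with DNMT3B knockdown (log2 0.77, adjusted p = 0.0141), although those libraries overlapped Control. Neither HRNR nor TCHH was followed through the alternative analyses. HRNR and TCHH lie in the same complex of chromosome 1 as S100A4, which moved the other way in both knockdowns relative to HRNR.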
